A study of Mus musculus with 2 samples.

Results

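The 10 genes described here encode the switch by which a cell leaves the division cycle, namely the D-type cyclins (*Ccnd1*, *Ccnd2*, *Ccnd3*), the inhibitors of cyclin-dependent kinases (*Cdkn1a*, *Cdkn1b*, *Cdkn1c*, *Cdkn2c*) and the pocket proteins (*Rb1*, *Rbl1*, *Rbl2*). They were taken as a list of named regulators, out of 18194 genes that had a probe set annotated to that gene alone, and all of their 27 such probe sets are accounted for. Signals were measured on 2 Affymetrix Mouse Genome 430 2.0 arrays with femoral cartilage RNA of *Tric-b*-knockout embryos at E17.5, on a strain background labelled C57BL/6J and 129Sv. One array held the plate section enriched with columnar and hypertrophic chondrocytes, and the other the section enriched with round chondrocytes. Both sections lacked *Tric-b* (*Tmem38b*), which encodes an ER cation channel, and each RNA was mixed from 3 preparations according to the submitters. With a single array for each zone, no difference given here has a p-value, and cartilage of other genotypes was not analysed.

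Cyclins D1, D2 and D3 bind the kinases CDK4 and CDK6, and the complexes phosphorylate the retinoblastoma family of pocket proteins (RB, p107 and p130). Phosphorylated pocket proteins release E2F transcription factors, which then switch on genes for DNA replication. Inhibitors of the Cip/Kip family (p21, p27 and p57) bind cyclin-CDK complexes, and inhibitors of the INK4 family bind CDK4 and CDK6 directly. In the growth plate, round and columnar chondrocytes divide and hypertrophic chondrocytes do not. Mice lacking p57, or lacking p107 and p130 together, are known for chondrocytes that fail to leave the cycle on time.

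The sections largely carried the markers of their labels. At least 2-fold higher with columnar/hypertrophic RNA were 6 of 7 columnar and prehypertrophic genes and 4 of 5 compared hypertrophic genes, with *Ucma* at least 2-fold lower and *Mmp13* under the floor in both. *Col10a1* had a signal of 25421 in the columnar/hypertrophic section, against 55.2 in the round section, which is under the floor. Of 8 round or resting genes, 6 were at least 2-fold lower in the columnar/hypertrophic section, and the 7 pan-chondrocyte genes stayed within 2-fold. Other cell types differed as well. The 5 compared genes of perichondrium, tendon and fibroblasts were each at least 2-fold lower, and this list summed to 10737 in the columnar/hypertrophic section, against 61151 in the round section. The 2 compared skeletal muscle genes were at least 2-fold higher, and their list summed to 857, against 206 in the round section. Of 4 compared osteoblast genes, 1 was at least 2-fold higher and 2 at least 2-fold lower. No compared gene of endothelium (4), erythroid cells (1) or myeloid cells and osteoclasts (4) passed 2-fold, and *Tie1*, *Hba-a1* and *Ptprc* lay under the floor in both sections. The part of these cell types in the values of the 10 genes was not tested, and in mixed cells a different share of a cell type and a different level per cell cannot be told apart.

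The inhibitor gene *Cdkn1a* and the pocket protein gene *Rb1* were more than 2-fold higher in the columnar/hypertrophic section, and the other 8 genes stayed within 2-fold. *Cdkn1a* was 7.03-fold and *Rb1* 3.04-fold higher on the probe set that stands for each gene, the one with the highest mean log2 signal. The remaining genes had log2 differences, columnar/hypertrophic minus round, from -0.60 for *Ccnd3* to 0.35 for *Ccnd1*. Signals under a floor of 65.9, the 40th percentile of all values, were not told apart. Of the 27 probe sets, 24 lay above this floor in both sections, 1 (*Ccnd3*) in the round section alone, and 2 (1 each of *Rb1* and *Rbl1*) in neither and were not compared. Of the 25 compared, 3 were at least 2-fold higher (12%) and 0 at least 2-fold lower in the columnar/hypertrophic section. Over all 29258 compared probe sets on the arrays, 3.58% were at least 2-fold higher and 6.24% at least 2-fold lower, or 9.82% in either direction. The 3 member probe sets belong to 2 genes, so they are not 3 separate observations. Counted by gene, 2 of 10 members were at least 2-fold higher and 0 lower, against 4.26% higher, 6.17% lower and 10.4% in either direction among 12714 compared genes. The median log2 difference was -0.27 over the members and -0.04 over all compared genes. The balance of all calls depended on scaling, since 36.4% of the called probe sets were higher in the columnar/hypertrophic section as deposited, 50% after lowess centring, 48.6% after quantile normalization and 45.4% after centring on the median. The sign of each of the 10 genes was the same under these scalings.

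**Figure D1:**
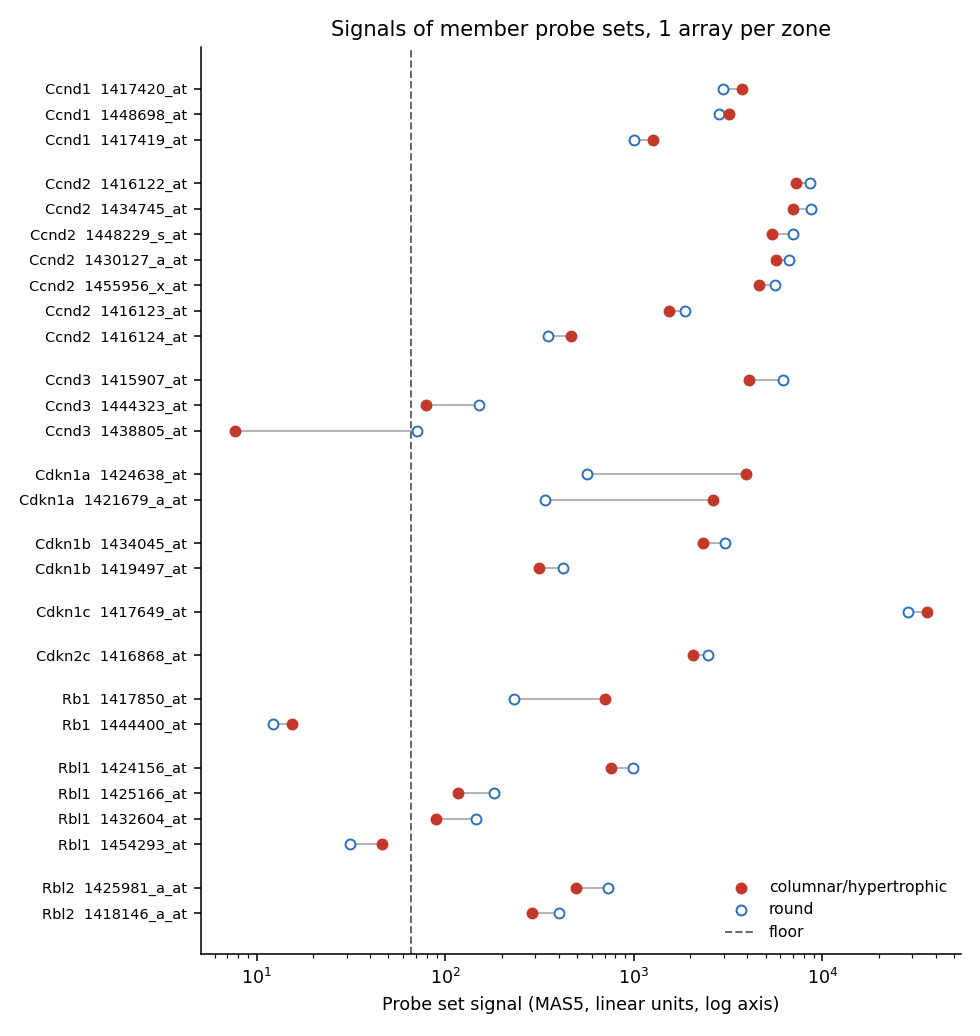
Signals (MAS5, linear units on a log axis) of all 27 probe sets of the 10 genes, with the columnar/hypertrophic array as filled circles and the round array as open circles, 1 array per zone, and the floor of 65.9 as a dashed line. The 2 *Cdkn1a* probe sets and 1 of *Rb1* have the widest gaps among pairs above the floor, and the lowest *Ccnd3* probe set falls under the floor with the columnar/hypertrophic RNA alone.

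*Cdkn1a* (Entrez gene 12575) encodes p21, a Cip/Kip inhibitor induced by p53 and by differentiation signals in many tissues. Its brighter probe set had a signal of 3951 in the columnar/hypertrophic section, against 562 in the round section. Its other probe set had a signal of 2638 in the columnar/hypertrophic section, against 338 in the round section, a 7.80-fold difference. The log2 differences of 2.81 and 2.96 lay closer together than the pooled SD of 0.34 between probe sets of one gene, which was taken over 5446 genes and holds no variation between animals. They stood at percentiles 99.7 and 99.8 of all compared probe sets. Among 12714 compared genes, 47 had a larger difference in this direction.

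For *Cdkn1a* 2 start sites were listed, and which of them supplied these signals is not known from the arrays. The 250 bases before each are shown (RefSeq, GRCm38.p6, plus strand), since this is the member with the largest difference. At the upstream start, chr17:29090729-29090978, the capitals mark a pair of adjacent p53 half-sites with 1 mismatch to the consensus, from 51 to 32 bases before the start. At the downstream start, chr17:29093519-29093768, they mark the GC box GGGCGG, the motif of SP1-type factors, at 104 to 99 and 46 to 41 bases before the start.
Cdkn1a upstream start: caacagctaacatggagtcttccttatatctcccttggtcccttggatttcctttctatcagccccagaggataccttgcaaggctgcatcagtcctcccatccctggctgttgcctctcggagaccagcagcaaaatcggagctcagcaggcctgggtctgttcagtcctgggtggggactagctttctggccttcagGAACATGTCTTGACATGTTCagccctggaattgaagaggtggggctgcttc
Cdkn1a downstream start: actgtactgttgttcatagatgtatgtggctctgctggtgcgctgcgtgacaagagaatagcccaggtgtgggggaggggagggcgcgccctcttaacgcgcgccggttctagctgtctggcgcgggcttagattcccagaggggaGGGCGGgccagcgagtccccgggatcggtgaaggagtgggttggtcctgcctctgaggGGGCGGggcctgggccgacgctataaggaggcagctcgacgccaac

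Such a p53 pair, read with no spacer and at most 1 mismatch in all, was found in 25 of 32851 listed windows of the same length (0.0761%), and the GC box on either strand in 32.7%. The first unit of the pair is itself a p53 half-site without mismatch, and another lies from 73 to 64 bases before the upstream start. Single half-sites without mismatch were found in 7.13% of windows. The TATA motif TATAAA, in 12.4% of windows on either strand, was found in none of the 9 windows of the members. A match describes the letters and is not a binding site, and no match says only that the letters are not in the window.

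The other inhibitor genes stayed within 2-fold. *Cdkn1c* (Entrez gene 12577), the imprinted gene of p57, had a signal of 35718 in the columnar/hypertrophic section, against 28498 in the round section, on its 1 probe set, a log2 difference of 0.33. It was among the brightest signals measured, with 112 of 45037 probe sets at or above it in the columnar/hypertrophic section, against 168 in the round section, and whether so bright a signal was compressed was not tested. *Cdkn1b* (Entrez gene 12576) encodes p27, the Cip/Kip inhibitor that accumulates in resting cells of many tissues. Its brighter probe set had a signal of 2325 in the columnar/hypertrophic section, against 3031 in the round section. Its other had 315 in the columnar/hypertrophic section, against 422 in the round section, and the log2 differences of -0.38 and -0.42 were close to each other. *Cdkn2c* (Entrez gene 12580), which encodes the INK4 inhibitor p18, had a signal of 2054 in the columnar/hypertrophic section, against 2487 in the round section, a log2 difference of -0.28. *Cdkn1b* and *Cdkn2c* thus had the opposite sign to *Cdkn1a* and *Cdkn1c*.

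The pocket protein genes did not share a direction. *Rb1* (Entrez gene 19645), the gene of the retinoblastoma protein, had a signal of 706 in the columnar/hypertrophic section, against 232 in the round section, a log2 difference of 1.60 at percentile 98.7. This value rests on 1 probe set, as the other lay under the floor with 15.4 in the columnar/hypertrophic section, against 12.2 in the round section. Among 12714 compared genes, 207 had a larger difference than *Rb1* in this direction.

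*Rbl2* (Entrez gene 19651) encodes p130, the pocket protein typical of resting cells. Its brighter probe set had a signal of 495 in the columnar/hypertrophic section, against 729.6 in the round section. Its other had 289.5 in the columnar/hypertrophic section, against 401 in the round section, and the log2 differences were -0.56 and -0.47. *Rbl1* (Entrez gene 19650) encodes p107, the pocket protein that is abundant in dividing cells. Its brightest probe set had a signal of 756 in the columnar/hypertrophic section, against 991 in the round section. Dimmer ones had 116 and 88.9 in the columnar/hypertrophic section, against 181 and 146 in the round section. A last one lay under the floor with 46.4 in the columnar/hypertrophic section, against 31.3 in the round section. The 3 log2 differences of *Rbl1* ranged from -0.72 to -0.39, so all 5 compared probe sets of *Rbl1* and *Rbl2* were negative, each inside 2-fold.

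The window before the *Rbl1* start is shown because this gene is itself known as a target of E2F (RefSeq, GRCm38.p6, minus strand, chr2:157204535-157204784). The capitals mark an E2F motif from 18 to 11 bases before the start, and a GC box on the opposite strand, left in lower case, lies from 226 to 221 bases before it.
Rbl1: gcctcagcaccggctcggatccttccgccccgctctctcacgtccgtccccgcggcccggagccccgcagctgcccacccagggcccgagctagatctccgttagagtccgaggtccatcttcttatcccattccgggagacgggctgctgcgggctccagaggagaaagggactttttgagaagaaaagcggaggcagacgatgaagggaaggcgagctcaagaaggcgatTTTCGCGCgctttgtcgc

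The E2F letters searched were TTTCCCGC, TTTCGCGC, TTTGCCGC and TTTGGCGC on both strands. They were found in 1.86% of the 32851 windows, and, of the 9 windows listed for 6 of the 10 members, in that of *Rbl1* alone. No E2F motif overlapped a GC box in these windows. GC boxes were also found before *Ccnd3*, *Cdkn1b* and *Cdkn2c*. No window was listed for *Ccnd1*, *Ccnd2*, *Cdkn1c* and *Rb1*. Any relation of these letters to the differences was not tested.

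The D-type cyclin genes lay within 2-fold. *Ccnd1* (Entrez gene 12443) is the cyclin D gene known to be induced by parathyroid hormone-related protein in dividing chondrocytes. Its brightest probe set had a signal of 3774 in the columnar/hypertrophic section, against 2959 in the round section. The others had 3201 and 1259.85 in the columnar/hypertrophic section, against 2822 and 998 in the round section. All 3 were positive, with log2 differences of 0.35, 0.18 and 0.34.

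*Ccnd2* (Entrez gene 12444) encodes cyclin D2, which can stand in for cyclin D1 in many tissues. Its brightest probe set had a signal of 7246 in the columnar/hypertrophic section, against 8659 in the round section, a log2 difference of -0.26. Of its 7 probe sets, 6 were negative, from -0.38 to -0.22. The exception was the dimmest, with 464 in the columnar/hypertrophic section, against 353 in the round section, a log2 difference of 0.40. The probe sets of *Ccnd2* therefore disagreed in sign.

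*Ccnd3* (Entrez gene 12445) encodes cyclin D3, which in several lineages persists during differentiation. It had a signal of 4108 in the columnar/hypertrophic section, against 6211 in the round section, a log2 difference of -0.60. A dimmer probe set had 79.3 in the columnar/hypertrophic section, against 151 in the round section, a log2 difference of -0.93 close to the floor. The dimmest had 7.68 in the columnar/hypertrophic section, against 70.6 in the round section, which gives only a bound of -0.10. *Ccnd1* and *Ccnd3* thus had opposite signs on every compared probe set. Of the 8 genes within 2-fold, *Ccnd2*, *Cdkn1c* and *Cdkn2c* had differences smaller than 0.34, the pooled SD between probe sets, as deposited. Which genes lay under it depended on the scaling. After quantile normalization *Ccnd1* stood at 0.26 and *Ccnd2* at -0.43, and after centring on the median *Cdkn1b* stood at -0.29 and *Cdkn1c* at 0.42.

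**Figure D2:**
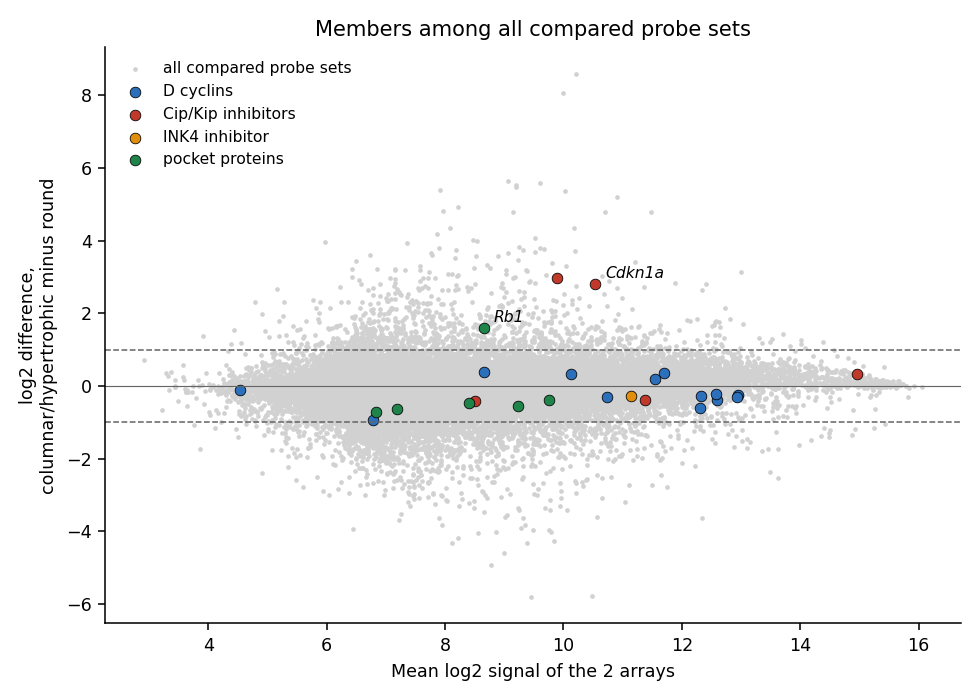
Log2 difference, columnar/hypertrophic minus round, against the mean log2 signal of the 2 arrays, for 29258 compared probe sets (grey) and the 25 of the 10 genes (coloured by family), with dashed lines at 2-fold. *Cdkn1a* at 2.81 and 2.96 and *Rb1* at 1.60 lie above the upper line, and the other 22 lie between the lines.

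Of 6 genes for kinase partners and other INK4 inhibitors, 4 were above the floor. Over all compared genes, 4.26% were at least 2-fold higher and 6.17% at least 2-fold lower. *Cdk6*, a kinase partner of the D cyclins, was the 1 gene at least 2-fold higher, with a signal of 2578 in the columnar/hypertrophic section, against 502 in the round section. Its 3 probe sets had log2 differences from 2.36 to 2.63, beside 0.35, -0.26 and -0.60 for the 3 D cyclin genes. *Cdk4*, the other partner, had 4821 in the columnar/hypertrophic section, against 4886 in the round section. *Cdk2*, the kinase of cyclins E and A, had a log2 difference of -0.89, on the 1 of its 2 probe sets that was compared. *Cdkn2d*, the INK4 gene of p19, had one of -0.16. *Cdkn2a* and *Cdkn2b*, the INK4 genes of p16 and p15, lay under the floor in both sections.

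Replication genes regulated by E2F, which is the output that pocket proteins hold back, had small differences of one sign. All 14 compared genes were negative and 0 passed 2-fold, with a median of -0.41. Over all compared genes the median was -0.04, 53.1% were negative and 10.4% passed 2-fold in either direction. The 14 values come from the same pair of arrays, so they are not 14 separate observations. The part of the cell types in these values was not tested. Under each of the 3 other scalings all 14 were also negative, with medians from -0.41 to -0.32. *Rrm2*, a ribonucleotide reductase subunit, had 2935 in the columnar/hypertrophic section, against 4340 in the round section, a log2 difference of -0.56. *Tyms* (thymidylate synthase) had -0.58 and *Pola1* (DNA polymerase alpha) -0.51. The signals of *Tyms* were dim, 106 in the columnar/hypertrophic section, against 159 in the round section. Under a 60th percentile floor *Tyms* was not compared, and the 13 genes left were all negative. The 5 compared genes of cyclins E, A and B with *Cdk1* were also negative, from -0.23 for *Ccna2* to -0.16, with *Ccne2* and *Ccnb2* at -0.19 each. *Ccne1* had -0.17 on an unspecific probe set and 0.16 on its other, so without unspecific probe sets 4 of the 5 were negative.

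Of 10 genes for E2F and DP factors, 1 was at least 2-fold higher and 1 at least 2-fold lower in the columnar/hypertrophic section. The shares over all compared genes were 4.26% higher and 6.17% lower, or 10.4% in either direction. *E2f4*, a repressor E2F that pairs with p107 and p130, had 166 in the columnar/hypertrophic section, against 78.2 in the round section, a log2 difference of 1.09 close to the floor. *Tfdp2*, a DP partner of E2F proteins, had 221 in the columnar/hypertrophic section, against 642 in the round section, and its 4 probe sets ranged from -1.54 to -0.59. *E2f2* had -0.78 on one probe set and 0.78 on the other. The first is close to the floor, with 68.5 in the columnar/hypertrophic section, against 117 in the round section. None of 7 genes of the MuvB core, which p107 or p130 join in a repressor of cell cycle genes, with *Mybl2* (B-MYB) and *Foxm1*, passed 2-fold, and the largest values were -0.71 for both *Lin9* and *Lin52* and 0.69 for *Mybl2*. With a 60th percentile floor only a bound of -0.11 was left for *Lin9*.

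Of 6 genes for the turnover of p27 and cyclin D, none passed 2-fold, beside 10.4% of all compared genes in either direction. *Rbx1* (-0.59), *Skp2* (-0.28) and *Fbxo4* (0.15) had the largest log2 differences. The signals of *Rbx1* were dim, 125 in the columnar/hypertrophic section, against 188 in the round section. Of 11 compared p53 targets other than *Cdkn1a*, 0 were at least 2-fold higher and 1 was at least 2-fold lower. Over all compared genes 4.26% were higher and 6.17% lower by this rule, so these counts lie near the general shares. The lower gene, *Gadd45a*, another growth arrest gene, had 146 in the columnar/hypertrophic section, against 839 in the round section, a log2 difference of -2.53. The highest value among these targets was 0.63 for *Aen*, with -0.62 to 0.91 over its 4 probe sets, beside 2.81 for *Cdkn1a*. *Plk2* had -0.97 and 0.05 on its 2 probe sets.

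Of 16 listed regulators of chondrocyte maturation that act upstream of cycle exit, 13 were compared. Of these, 7 were at least 2-fold higher and 1 at least 2-fold lower. Over all compared genes the shares were 4.26% and 6.17%. The list was chosen with earlier results of these data known, so its counts are not independent of them. Of the 7 higher genes, *Ihh*, *Pth1r*, *Mef2c* and *Fgfr3* are also on the list of zone markers. *Ihh* had the largest log2 difference, 5.47, with a round signal of 87.8 near the floor, and a 60th percentile floor left a bound of 4.24. *Runx3* was 7.33-fold, *Pth1r* 7.02-fold and *Mef2c* 4.31-fold higher, beside 7.03-fold for *Cdkn1a*. *Foxo1* was 2.77-fold, *Myc* 2.50-fold and *Fgfr3*, the receptor that restrains chondrocyte division, 2.14-fold higher. *Fgfr3* fell short of 2-fold after quantile normalization (0.94) and lowess centring (0.93), which left 6 genes. *Smad3*, of TGF-beta signalling, had a log2 difference of -1.09. *Mycn* had -0.39 on dim signals of 140 in the columnar/hypertrophic section, against 184 in the round section, and its 3 probe sets ranged from -2.06 to -0.39. With probe sets averaged *Smad3* stood at -0.98 and *Mycn*, at -1.12, was the 1 gene at least 2-fold lower.

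**Figure D3:**
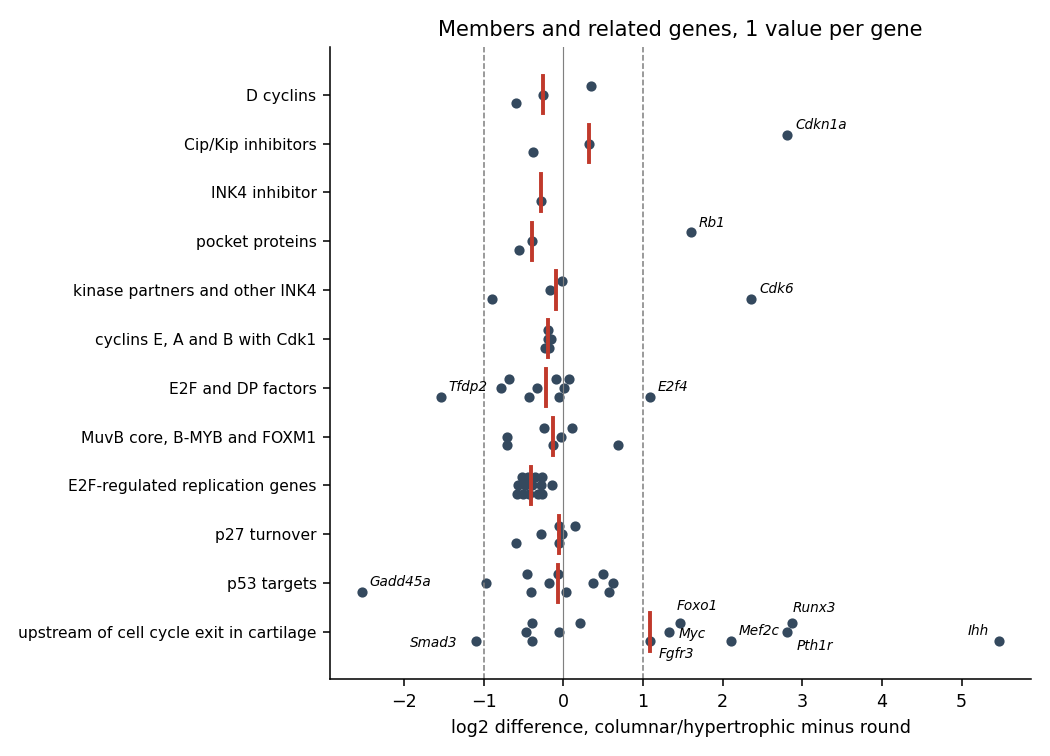
Log2 difference, columnar/hypertrophic minus round, of each compared gene of the 4 member families and 8 related lists (points, 1 value per gene from its brightest probe set), with the list median as a red bar and dashed lines at 2-fold. Genes past 2-fold are named, and all 14 E2F-regulated replication genes lie left of 0 within 2-fold.

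Over 9 processing settings, the log2 difference of *Cdkn1a* stayed between 2.81 and 2.90 and that of *Rb1* between 1.60 and 1.75. *Ccnd3* stayed between -0.73 and -0.51, *Rbl2* between -0.56 and -0.46, and *Rbl1* between -0.58 and -0.30. The values nearest 0 were 0.14 for *Cdkn1c*, after lowess centring, -0.17 for *Ccnd2* and -0.19 for *Cdkn2c*. None of the 10 genes turned its sign or crossed 2-fold. The floor settings and the removal of unspecific probe sets could not change these values, and averaging could not change those of *Cdkn1c*, *Cdkn2c* and *Rb1*. The range of *Rb1* thus came from the scalings alone.

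**Figure D4:**
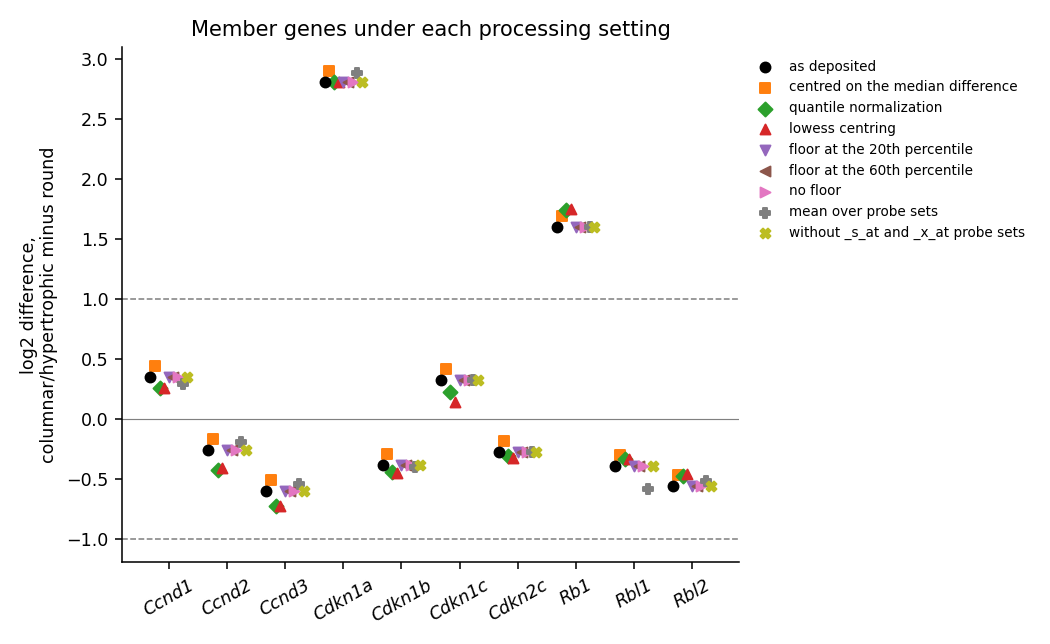
Log2 difference, columnar/hypertrophic minus round, of the 10 member genes under 9 processing settings, 1 symbol per setting, with dashed lines at 2-fold. No gene crosses 0 or either dashed line between settings, and the lowest value of *Cdkn1c* is 0.14 after lowess centring. The floor settings and the removal of unspecific probe sets give the deposited values by construction.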

How the data were processed

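RNA of *Tric-b*-knockout femoral cartilage was hybridized to 2 Mouse Genome 430 2.0 arrays, grouped by zone from the sample labels. The deposited files hold linear intensity values per probe set. For these the submitters' notes name MAS5 without a version, whereas for heatmaps the methods name robust multiarray analysis, which would give log values. After removal of 2% at each end, the array means were 496 (columnar/hypertrophic) and 497 (round), so nothing was rescaled. Of 45037 probe sets, 26448 (columnar/hypertrophic) and 27596 (round) exceeded the floor of 65.9.

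Platform annotation gave 1 gene symbol for 34945 probe sets, several for 932, and left 9160 unnamed here. Pairs of signals both under the floor were left out, and a single one under it gave a bound. Differences were counted by a 2-fold rule without a test, as there were no replicates. Members and lists were chosen with earlier results of these data known. Named from each pathway list were up to 3 genes whose difference was largest, both signals being above the floor, and any past 2-fold. The cell type lists are given by their counts with few names. *Cdk4*, *Ccne1*, *Mycn*, *E2f6*, *Cdkn2a*, *Cdkn2b*, *Foxm1*, *Ucma*, *Mmp13*, *Tie1*, *Hba-a1* and *Ptprc* were added after their values were seen. Likeness of pattern was not ranked, as 2 arrays give a single difference, and percentiles are given instead. Alternatives were 3 other scalings, other floors or none, averaging probe sets, leaving out unspecific ones, and another fold rule. Promoter windows came from a RefSeq table that listed 6 of the 10 genes. Simulated data with known differences, equally many in each direction, were used to test the scalings and the 2-fold rule. They do not test the scalings where calls are unbalanced, as they were here. The floor was checked on a few made-up pairs of signals, and the other steps were not tested. Software was Python 3.11.15 with matplotlib 3.10.9, statsmodels 0.14.6, pandas 2.3.3 and numpy 2.4.6.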

Additional observations from a re-analysis of the deposited data

How the results depend on the processing

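Each of the 10 member genes kept its direction and its side of 2-fold under the 8 alternatives to the deposited values. All 80 of these values lay within 0.34, the pooled SD between probe sets, of the deposited ones, but many could not move. The probe set standing for each gene lay above every floor and was not an unspecific one. The floor settings and leaving out unspecific probe sets therefore returned the deposited values. Averaging could not move *Cdkn1c*, *Cdkn2c* or *Rb1*, which had 1 compared probe set each, and centring on the median shifted every gene alike. The list medians moved by less than 0.34 too, which is wide for a median. With probe sets averaged, the median of the E2F and DP factors was 0.00, against -0.21. Member probe sets at least 2-fold higher numbered 3 under every change of scaling and floor. Those at least 2-fold lower numbered 0 as deposited, but 1 with a 20th percentile floor, where the bound of the dimmest *Ccnd3* probe set passed 2-fold, 1 with no floor, where that bound became a difference, and 4 by a 1.5-fold rule. Under a 60th percentile floor *E2f4* lay under the floor, so 0 E2F and DP factors were at least 2-fold higher. With no floor, 2 genes of the kinase and INK4 list were at least 2-fold higher and 1 lower, as *Cdkn2a* and *Cdkn2b* were then compared. Of the values of related genes 547 moved by less than 0.34 and 8 by more. Under the 60th percentile floor only bounds were left for *Ihh* (4.24), *Gadd45a* (-2.02) and *Lin9* (-0.11). With probe sets averaged, *Tfdp2* stood at -1.06, *Mycn* at -1.12, *Plk2* at -0.46, *E2f2* at 0.00 and *E2f6* at 0.05, the last pair with the sign turned. Some smaller moves crossed 2-fold or 0, as *Fgfr3* stood at 0.94 after quantile normalization and 0.93 after lowess centring, *Smad3* at -0.98 with probe sets averaged, and *Ccne1* turned to 0.16 without unspecific probe sets. Over all probe sets, 1047 were at least 2-fold higher and 1827 lower as deposited, against 2369 and 3936 with the 20th percentile floor, 601 and 801 with the 60th percentile floor, and 5074 and 7128 with no floor. Where no construction is named, the cause was not tested.

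No paired analysis was possible because a single array stood for each zone. The number of arrays limits the precision, and a difference under 2-fold has no replicate error to be set against.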
